A study of Mus musculus with 8 samples.

Results

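The genes described here are 31 mouse genes of the oxygen-sensing pathway and of glycolysis, taken by symbol from a list of pathway members and not by a threshold on their values. Of the 31, 30 have a row in the table of 18187 gene symbols, 29 passed the filter on low counts and were tested, and the level of P4ha2 was not analysed here. Car9, the carbonic anhydrase that is a widely used hypoxia marker, has a row but did not pass the filter. The libraries are bulk RNA-seq of neutrophils that the submitters link to B16 tumours, a mouse melanoma line grown in mice. There are 3 libraries with the treatment aOX40 (replicates 1 to 3), a name for an antibody to OX40, a costimulatory receptor best known on T cells, and 5 libraries with the treatment IgG (replicates 2 to 6), the control immunoglobulin. Mouse strain, sex, age, dose, time of sampling and how the neutrophils were isolated are not stated, nor is it stated that the libraries come from different animals, so p-values measure the spread between libraries, which may be technical.

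Cells sense oxygen through prolyl hydroxylases of the Egln family, which mark the alpha subunits of hypoxia-inducible factors (HIF) for destruction while oxygen is present. When oxygen is short, Hif1a protein escapes this control, pairs with Arnt and binds short DNA motifs near its target genes, which include glucose transporters, most glycolytic enzymes, lactate dehydrogenase and Egln3 itself. Neutrophils carry few active mitochondria and draw most of their ATP from glycolysis, and Hif1a is known to prolong their survival in low oxygen. Hif1a is controlled mostly at the level of its protein, which RNA-seq does not measure.

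The promoters of 3 members are shown because the results turn on these genes. Hk2 was the member that differed between the treatments, and Ldha and P4ha1 were among those with their highest value in 1 IgG library, replicate 2. Each sequence is the 250 bases before the RefSeq gene start on GRCm38.p6, written 5′ to 3′ along the gene's own strand, and capitals mark the core HIF motifs ACGTG and GCGTG on either strand (CACGT and CACGC on the other one; a CACGTG holds ACGTG on both strands and counts 2 times). Hk2 is at chr6:82774455-82774704 on the minus strand, Ldha at chr7:46845554-46845803 on the plus strand and P4ha1 at chr10:59323046-59323295 on the plus strand.
Hk2: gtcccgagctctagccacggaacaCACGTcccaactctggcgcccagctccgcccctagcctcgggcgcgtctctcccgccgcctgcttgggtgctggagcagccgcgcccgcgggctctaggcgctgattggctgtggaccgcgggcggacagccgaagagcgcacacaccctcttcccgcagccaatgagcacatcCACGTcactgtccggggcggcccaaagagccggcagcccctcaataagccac
Ldha: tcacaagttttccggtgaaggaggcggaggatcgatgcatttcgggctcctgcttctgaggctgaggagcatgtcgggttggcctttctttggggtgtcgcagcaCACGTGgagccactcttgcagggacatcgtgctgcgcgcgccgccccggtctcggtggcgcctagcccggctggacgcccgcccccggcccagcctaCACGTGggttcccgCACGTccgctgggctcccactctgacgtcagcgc
P4ha1: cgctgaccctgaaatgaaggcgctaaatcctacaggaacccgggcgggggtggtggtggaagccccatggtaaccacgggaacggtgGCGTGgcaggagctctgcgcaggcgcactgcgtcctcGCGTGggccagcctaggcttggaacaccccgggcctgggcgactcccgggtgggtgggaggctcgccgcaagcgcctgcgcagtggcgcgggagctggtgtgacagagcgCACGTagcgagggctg
The Hk2 window holds 2 ACGTG motifs, with the nearer one 52 bases before the gene start. The Ldha window holds 5 ACGTG motifs, of which the nearest is 34 bases before the start, and the P4ha1 window holds 1 ACGTG and 2 GCGTG motifs, the nearest at 16 bases. RefSeq windows matched 29 of the 31 genes, with Car9 and P4ha2, which were not tested, and without Slc2a3 and Ndrg1, which were. ACGTG occurred in 18 of these 29 windows (62.1%), against 22.7% of the 8494 windows of genes tested and 16.6% of all 27025 windows of the same length. GCGTG was in 15 of the 29 (51.7%), against 45.0% of the windows of genes tested. Either motif was in 24 of the 29 (82.8%), against 56.6%. A motif match in a sequence is a description and does not show that a factor binds there.

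The libraries held 52.7 to 73.5 M counts (M, mega), on average 71.1 ± 2.06 M in aOX40 (SD, n = 3) beside 58.9 ± 5.02 M in IgG (SD, n = 5), so that depth differed between the groups (exact two-sided permutation p = 0.0357, the smallest that the 56 splits of these libraries allow). All 12 neutrophil markers were present in every library, and they summed to 22541 ± 3670 CPM (counts per M of library size, scaled with TMM factors) in aOX40 and 23016 ± 4156 CPM in IgG. Of these 12, 3 were called between the treatments, all higher in aOX40: the granule and surface genes Mmp8 (adjusted p = 0.0443), Mmp9 (adjusted p = 0.0467) and Cd177 (adjusted p = 0.0414, edgeR). The 8 melanoma markers summed to 7.25 ± 2.35 CPM in aOX40, against 9.70 ± 4.45 CPM in IgG. Monocyte and macrophage markers (10 of 12 in the table) summed to 1299 ± 221 CPM in aOX40, against 1758 ± 258 CPM in IgG (exact permutation p = 0.0714), and dendritic cell markers (5 of 8 in the table) to 16.2 ± 4.51 CPM in aOX40, against 32.7 ± 9.09 CPM in IgG (exact permutation p = 0.0357). Within the monocyte and macrophage list the genes differed in direction. Cd68 was at 504 to 879 CPM in aOX40, against 1019 to 1466 CPM in IgG (adjusted p = 0.0362, edgeR), while Adgre1 was at 14.5 to 26.8 CPM in aOX40, against 2.13 to 8.55 CPM in IgG (adjusted p = 0.0248), and Csf1r at 38.0 to 75.6 CPM in aOX40, against 4.51 to 25.1 CPM in IgG (adjusted p = 0.0546). The ranges of the sums were 1083 to 1526 CPM in aOX40 beside 1403 to 2037 CPM in IgG for monocyte and macrophage markers. For dendritic cell markers they were 11.3 to 20.2 CPM in aOX40 beside 22.5 to 41.0 CPM in IgG. Most of that sum was Itgax, at 10.8 to 18.6 CPM in aOX40 and 22.3 to 39.5 CPM in IgG (adjusted p = 0.0697, edgeR). The other dendritic cell markers were at most 3.58 CPM in any library, and Flt3 was at 0 in 6 libraries. Fibroblast and pericyte markers (4 of 8 in the table, with Lum at 0 in 7 libraries) were at 2.49 ± 1.43 CPM in aOX40, against 15.7 ± 11.6 CPM in IgG (exact permutation p = 0.0714), and messenger RNAs of the mitochondrial genome took 0.127 ± 0.0262% of counts in aOX40 against 0.0642 ± 0.0115% in IgG (exact permutation p = 0.0357). The part of these differences in the member results was not tested. In bulk RNA, fewer cells of a type and less RNA per cell cannot be told apart.

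Members of the set were abundant: 28 of the 29 tested were in the highest quartile of all tested genes by mean level. Per length of the longest transcript (RPKM, CPM per kilobase), the pyruvate kinase gene Pkm averaged 1861 RPKM in aOX40 and 1404 RPKM in IgG, and the lactate dehydrogenase gene Ldha 1781 RPKM in aOX40 and 2496 RPKM in IgG. Aldoa, the aldolase of glycolysis, averaged 1386 RPKM in aOX40 and 1288 RPKM in IgG. At the low end were Pdk1, a kinase that inhibits pyruvate dehydrogenase, at 6.37 RPKM in aOX40 and 7.56 RPKM in IgG, and Adm, the peptide hormone adrenomedullin, at 1.54 RPKM in aOX40 and 10.2 RPKM in IgG. Gapdh was listed at 89.8 RPKM in aOX40 and 92.6 RPKM in IgG, below the enzymes before and after it in the pathway, at 707 RPKM in aOX40 and 714 RPKM in IgG for Tpi1 and 131 RPKM in each group for Pgk1. Gapdh has 70 near copies with their own rows in the table, and adding their counts raised it 1.41-fold. Pgk1 was raised 2.00-fold and Eno1 1.94-fold by 2 near copies each, so the levels of these 3 genes are uncertain. Pkm was raised 1.18-fold by 1 near copy, and it also shares exon bases with a gene model on its own strand. Its level is uncertain for both reasons, and the part of the shared bases in it was not tested. Car9 was near the limit of detection, with 0 counts in 5 of the 8 libraries, where 3 counts would be 0.0337 to 0.0579 CPM, and at most 0.391 CPM in IgG replicate 4.

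IgG replicate 2 was the highest IgG library in most of these genes. It had the highest CPM of the 5 IgG libraries in 23 of the 29 tested members (79.3%), against 22.4% of all 13278 genes tested and 28.2% of the genes in the highest quartile by level. In 19 members (65.5%) it was above all 7 other libraries, aOX40 included. The same held for 16% of all genes tested and 23% of the genes in the highest quartile by level. Its median log2 difference from the mean of the other 4 IgG libraries was 0.70 over the members and -0.042 over all genes, while the same median was -0.032, -0.22, -0.23 and -0.16 for IgG replicates 3 to 6. The members' spread over the 5 IgG libraries was nevertheless that of other abundant genes, with a median SD of log2 CPM of 0.38, against 0.72 for all genes tested and 0.35 for the highest quartile by level.

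**Figure D1:**
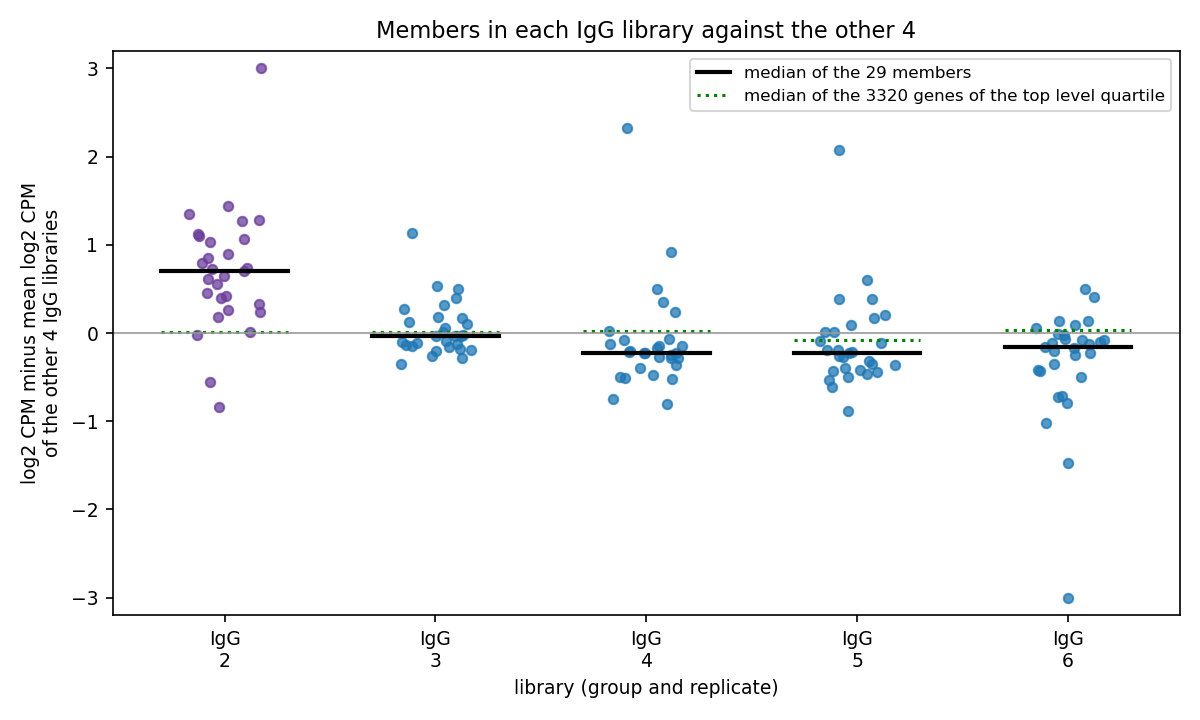
Log2 CPM of each of the 29 tested members in 1 IgG library minus its mean in the other 4 IgG libraries, by library; each point is 1 member, the solid bar is the median of the members and the dotted bar the median of the 3320 genes in the highest quartile by level. The member median is 0.70 in IgG replicate 2 and between -0.23 and -0.032 in the other 4 libraries, and the values of Adm beyond the axis, 3.47 in replicate 2 and -9.01 in replicate 6, are drawn at its edges.

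P4ha1 (chr10:59323296-59373304, plus strand, GRCm38), a subunit of the collagen prolyl hydroxylase and a classical hypoxia target, shows the pattern. It was at 140, 191 and 143 CPM in aOX40 replicates 1 to 3, and at 544, 286, 213, 192 and 139 CPM in IgG replicates 2 to 6. IgG replicate 2 was 2.62 times the mean of the other 4 IgG libraries, and the 2 groups overlapped at the low end. The log2 difference between aOX40 and IgG was -0.80 (SE 0.39, 95% interval -1.66 to 0.069, adjusted p = 0.241, edgeR), and -0.39 without IgG replicate 2 (adjusted p = 0.399). Ero1l, an oxidase of protein folding that hypoxia induces, had 1614 CPM in IgG replicate 2, 2.39 times the mean of the others, and Gpi1, the glucose phosphate isomerase, had 513 CPM, 2.53 times their mean. The pattern was not in every member. Slc2a3 and Slc16a3, which carry glucose into and lactate out of the cell, were lowest in IgG replicate 2, at 0.670 and 0.553 times the mean of the other 4, and Hk2 (1.12), Hk1 (0.984) and Pgk1 (0.962) were close to it.

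Genes of the same pathways that are not members were read in the same way. Of 25 other hypoxia targets tested, 17 (68%) were highest in IgG replicate 2 among the IgG libraries, with a median log2 difference of 0.67. Of the 7 pentose phosphate genes none was highest there, with a median of -0.44, and of 13 other regulators of the HIF pathway 2 were, with a median of -0.14. Of 13 glycogen genes 6 were highest there (46.2%, median 0.17), and of 8 genes of pyruvate entry into mitochondria 3 (37.5%, median -0.10). Of 10 glycolysis isozymes outside the members 2 were highest and 2 lowest there, with a median of 1.29 and a range from -1.24 to 4.75. These differences are uncertain, since Aldoc, Eno3, Ldhc, Bpgm, Tigar and Slc16a1 each had an IgG library at 0 CPM. IgG replicate 2 held 54.2 M counts, had the fewest genes with at least 10 counts of all 8 libraries (11382), and carried the highest sums of monocyte and macrophage markers (2037 CPM, against 1403 to 1970 in the other IgG libraries), of fibroblast and pericyte markers (32.4 CPM against 3.45 to 21.5, with Col3a1, Dcn and Lum at 0), of endothelial markers (2 of 6 in the table, 27.5 CPM against 7.05 to 19.5, with Vwf at 0) and of melanoma markers (16.2 CPM against 5.77 to 12.4, with Sox10 at 0). Its neutrophil markers summed to 21965 CPM, inside the range of the other IgG libraries, 17756 to 27935 CPM. The part of these differences in the pattern was not tested.

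Between the treatments, 1 of the 29 tested members passed the threshold of an adjusted p of 0.05, and it was lower in aOX40: the hexokinase gene Hk2. Of all genes tested, 5.65% were called in either direction, 2.64% higher and 3.00% lower in aOX40, and 8.67% of the highest quartile by level were called lower, so that 1 of 29 lay near the share of all genes. Groups did not overlap in 5 members, 1 higher and 4 lower in aOX40, against 8.22% and 7.75% of all genes tested, and against 306 higher and 604 lower of the 3320 genes in the highest quartile by level, which holds 28 of the 29 members. At an unadjusted p below 0.05 there were 6 members, 1 higher and 5 lower, against 24.8% of all genes. The log2 fold change was above 0 in 9 members and below 0 in 20, with a median of -0.21 beside 0.045 for all genes tested and -0.10 for the highest quartile by level. Without IgG replicate 2 it was above 0 in 14 and below 0 in 15, with a median of -0.0047. Scaled by total counts alone, the median was 0.10 for the members and 0.35 for all genes, so the side of 0 depended on the scaling, and the members' median was below that of all genes with either scaling. The median 95% interval, which is not adjusted for the number of genes tested, reached 0.58 to either side of the estimate. A larger difference could still miss the adjusted threshold, as Slc2a1 did at -0.64 (adjusted p = 0.0932, edgeR). A member that did not pass may therefore still differ.

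**Figure D2:**
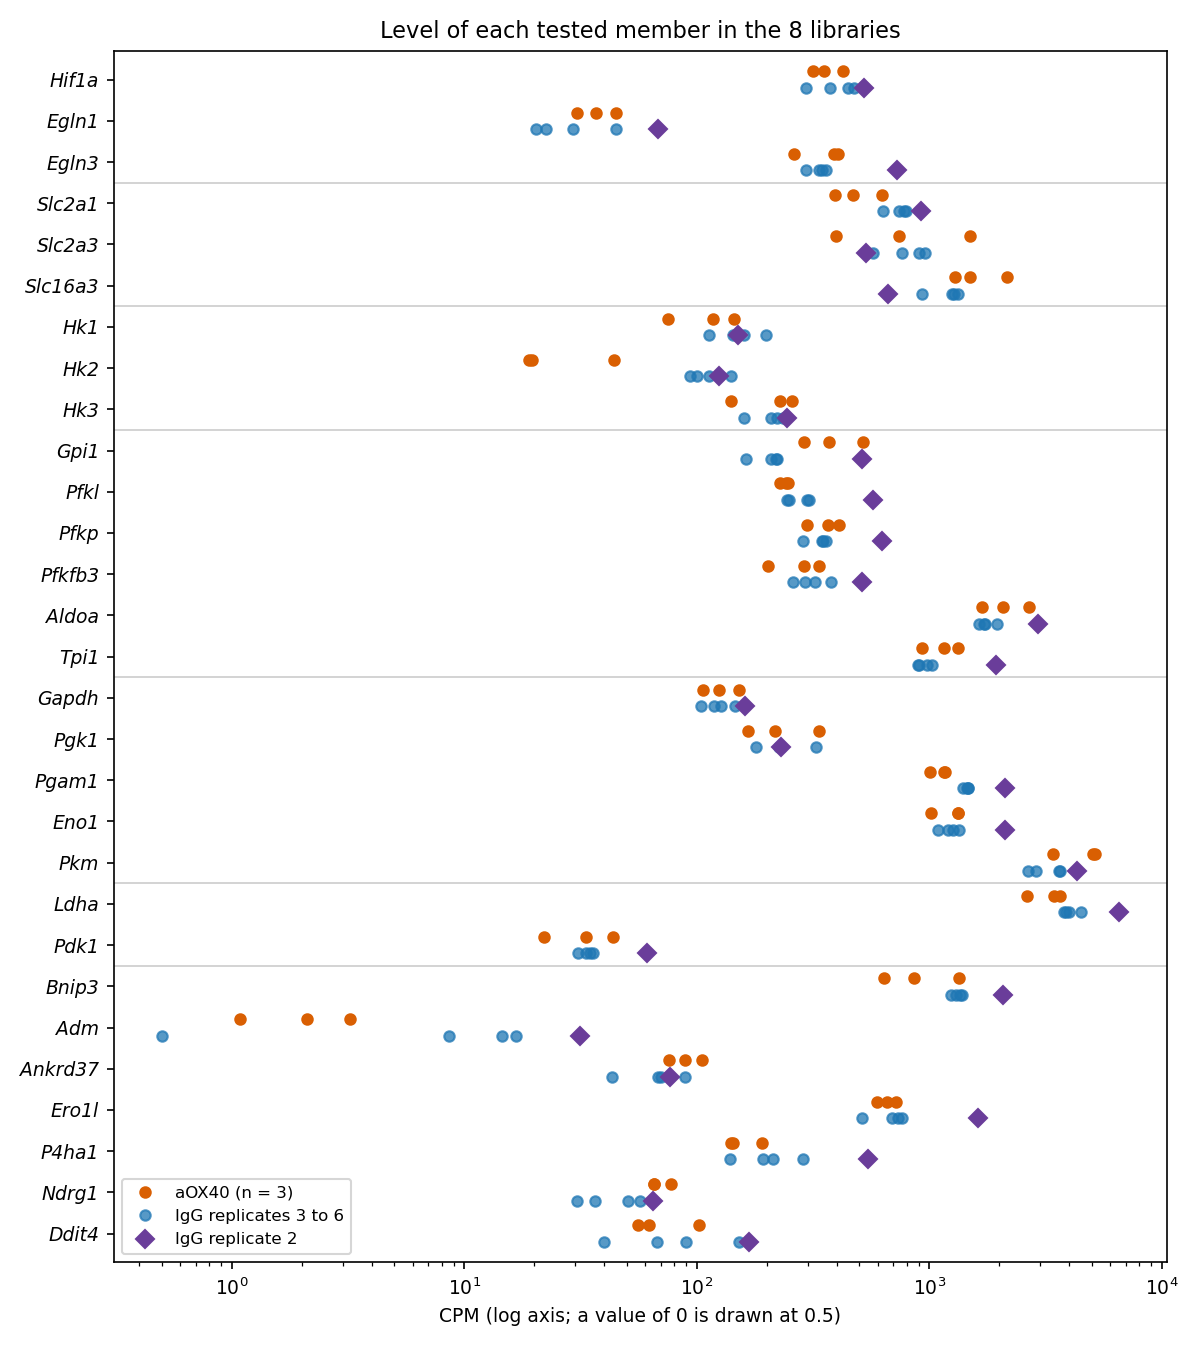
CPM (log axis) of the 29 tested members in the 8 libraries, in the order of their roles from oxygen sensing to other hypoxia targets; orange points are aOX40 libraries, blue points IgG replicates 3 to 6 and diamonds IgG replicate 2, and a value of 0 is drawn at 0.5. Only Hk2 and 4 other members, Slc2a1, Pgam1, Ldha and Ndrg1, have no overlap between the groups, and the diamonds lie to the right of all other points in 19 members.

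Oxygen sensors and Hif1a itself did not pass the test. Hif1a (chr12:73901375-73947530, plus strand, GRCm38), the regulated subunit of the HIF transcription factor, was at 315, 354 and 426 CPM in aOX40 and at 524, 373, 474, 296 and 447 CPM in IgG replicates 2 to 6. All 3 aOX40 libraries lay within the IgG range. Its log2 fold change was -0.21 (SE 0.22, 95% interval -0.70 to 0.27, adjusted p = 0.598, edgeR). Egln1, the main oxygen-dependent hydroxylase of Hif1a, averaged 37.4 ± 7.22 CPM in aOX40, against 37.0 ± 19.8 CPM in IgG (SD over 3 and 5 libraries, here and in other averages), and Egln3, a hydroxylase that HIF induces, averaged 352 ± 78.6 CPM in aOX40, against 412 ± 176 CPM in IgG. Both overlapped between the groups, and IgG replicate 2 was the highest library for both. Egln1 had a log2 fold change of 0.026 (SE 0.38), and of 0.36 without IgG replicate 2. Egln3 had one of -0.22 (SE 0.31), and of 0.079 without that library, and neither passed in either fit.

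None of the 3 transporters passed the test. Slc2a1 (chr4:119108711-119137983, plus strand), the glucose transporter GLUT1 and a standard HIF target, was at 392, 468 and 626 CPM in aOX40 and at 924, 792, 777, 633 and 742 CPM in IgG. The groups did not overlap, by a narrow margin between aOX40 replicate 3 and IgG replicate 5. The log2 fold change was -0.64 (SE 0.21, 95% interval -1.10 to -0.18), and at an adjusted p of 0.0932 (edgeR) it did not pass. It passed in 2 of 21 alternative analyses, DESeq2 (adjusted p = 0.0242, where 12.0% of all genes were called) and offsets for transcript length (-0.93, adjusted p = 0.0321, where 5.65% were). Slc2a3, the high-affinity glucose transporter GLUT3, ranged from 396 to 1488 CPM in aOX40, wider than from 536 to 961 CPM in IgG (log2 fold change 0.23, SE 0.37). Slc16a3, the lactate exporter MCT4, was at 1285, 1499 and 2161 CPM in aOX40 and at 662, 1258, 1279, 929 and 1324 CPM in IgG, where only aOX40 replicate 1 lay inside the IgG range. Its log2 fold change was 0.60 (SE 0.26, 95% interval 0.020 to 1.17, adjusted p = 0.187).

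Hexokinases trap glucose in the cell by phosphorylating it, and the genes differ: Hk1 is the housekeeping form, Hk2 the form that hypoxia and growth signals induce, and Hk3 the form typical of myeloid cells. Hk2 (chr6:82725025-82774454, minus strand, GRCm38) was at 44.2, 19.6 and 19.0 CPM in aOX40, and at 125, 93.1, 101, 140 and 112 CPM in IgG. Every aOX40 library was below every IgG library, and the highest aOX40 value was less than the lowest IgG value by more than the whole aOX40 range. The mean was 27.6 ± 14.4 CPM in the 3 aOX40 libraries (± SD), against 114 ± 18.9 CPM in the 5 IgG libraries, which gave a log2 fold change of -2.06 (SE 0.32, 95% interval -2.76 to -1.35, adjusted p = 0.0110, edgeR), which ranked 58 among all 13278 genes by p. No other gene of the table shares exon bases with Hk2. Without IgG replicate 2 the value was -2.02 (adjusted p = 0.0209). The call was lost without aOX40 replicate 2 (-1.85, adjusted p = 0.0811) and without aOX40 replicate 3 (-1.84, adjusted p = 0.0538), which each leave 2 aOX40 libraries, replicate 1 with its higher value among them. Over the whole table, 0 of 14111 genes were called without aOX40 replicate 2 (2230 at an unadjusted p below 0.05), and 26 higher and 33 lower of 14167 without aOX40 replicate 3. Over all 21 alternatives the log2 fold change lay between -2.56 and -1.78.

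Hk1 and Hk3 did not pass. Hk1 was at 75.4, 117 and 145 CPM in aOX40 and at 151, 160, 113, 143 and 199 CPM in IgG replicates 2 to 6 (a log2 fold change of -0.44, SE 0.26, 95% interval -1.01 to 0.12, adjusted p = 0.319). Hk3 was at 140, 227 and 257 CPM in aOX40 and at 244, 234, 159, 222 and 208 CPM in IgG (-0.040, SE 0.24, 95% interval -0.56 to 0.48, adjusted p = 0.939). Both overlapped between the groups, and aOX40 replicate 1, the highest aOX40 library for Hk2, was the lowest of the 8 for each of them.

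Per transcript length, Hk2 took a smaller share of the hexokinase messenger RNA in every aOX40 library than in any IgG library. It made up 11.6%, 3.50% and 2.95% of the summed RPKM of the 3 hexokinases in aOX40 replicates 1 to 3, against 17.0%, 13.3%, 19.4%, 19.9% and 15.5% in IgG replicates 2 to 6. Hk3 averaged 66.8 ± 3.48% in aOX40 and 53.9 ± 3.27% in IgG, and Hk1 27.2 ± 1.71% in aOX40 and 29.0 ± 3.75% in IgG (SD, n = 3 and 5). The sum of the 3 was 95.9 ± 24.6 RPKM in aOX40 and 123 ± 16.3 RPKM in IgG, and Hk3, the myeloid form, had the largest share in all 8 libraries. These shares are descriptions and were not tested.

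**Figure D3:**
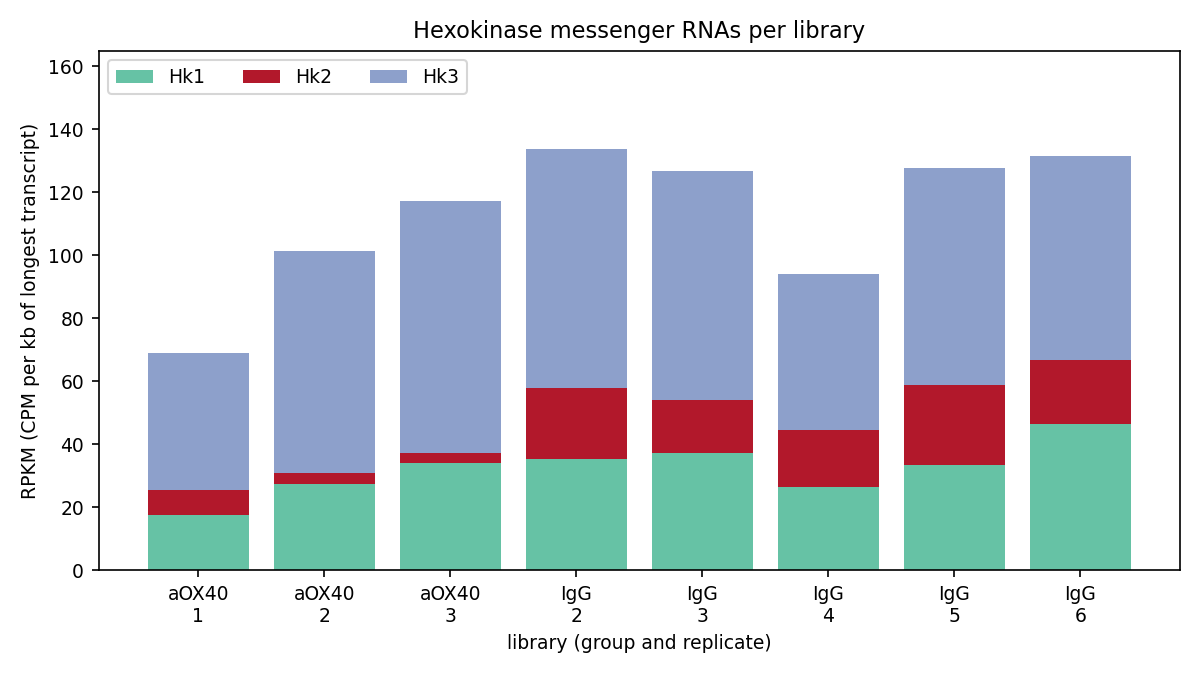
Level of the 3 hexokinase messenger RNAs per library, stacked, in RPKM (CPM per kilobase of the longest transcript); aOX40 libraries are on the left and IgG libraries on the right. The Hk2 segment is 3.46 to 8.02 RPKM in aOX40 and 16.9 to 25.4 RPKM in IgG, while the Hk3 segment is the largest in all 8 libraries.

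From glucose phosphate to triose phosphates, the enzymes gave 0 called of 6, with a median log2 fold change of -0.073. Pfkl (chr10:77986947-78010083, minus strand), the liver-type phosphofructokinase of the committed step, had the smallest adjusted p. It was at 228, 241 and 246 CPM in aOX40 and at 570, 297, 304, 244 and 249 CPM in IgG. The aOX40 libraries were close together and at the low end of IgG, whose highest library was again replicate 2. The log2 fold change was -0.48 (SE 0.28, 95% interval -1.11 to 0.15, adjusted p = 0.326, edgeR), and -0.20 without IgG replicate 2 (adjusted p = 0.540). Gpi1 had its higher values in aOX40, apart from 1 IgG library. It was at 290, 516 and 372 CPM in aOX40 and at 513, 210, 221, 218 and 162 CPM in IgG, and only IgG replicate 2 reached the aOX40 range. With all libraries its log2 fold change was 0.57 (SE 0.35, adjusted p = 0.348), and without IgG replicate 2 it was 0.96 (SE 0.23, adjusted p = 0.0496), where 4.00% of all genes were called. The platelet-type phosphofructokinase Pfkp (-0.13), the regulator of fructose bisphosphate Pfkfb3 (-0.36), Aldoa (0.11) and the triose phosphate isomerase Tpi1 (-0.013) had log2 fold changes with adjusted p of 0.431 to 0.984 and overlapping groups. Without IgG replicate 2 they were at 0.096 for Pfkp, -0.18 for Pfkfb3, 0.28 for Aldoa and 0.26 for Tpi1, and none passed. Of the members, 12 share exon bases with another gene of the table. Pfkp shares the most with a named gene on the other strand, 748 bases with Pitrm1, and since the strand setting is not known their reads may not be told apart. Pkm shares more than that with a gene model on its own strand, where no strand setting would tell the reads apart.

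The payoff steps from glyceraldehyde phosphate to pyruvate also gave 0 called, of 5, with a median of -0.044. Pgam1 (chr19:41911923-41918660, plus strand), the phosphoglycerate mutase, was at 1167, 1159 and 1011 CPM in aOX40 and at 2122, 1400, 1463, 1472 and 1457 CPM in IgG. The groups did not overlap, and leaving aside IgG replicate 2 both were tight. The log2 fold change was -0.51 (SE 0.20, 95% interval -0.94 to -0.078, adjusted p = 0.140, edgeR), and -0.38 without IgG replicate 2 (adjusted p = 0.201). Pkm, which makes pyruvate, was at 3400, 5032 and 5149 CPM in aOX40 and at 4314, 3594, 2867, 2659 and 3638 CPM in IgG (0.41, SE 0.22, adjusted p = 0.280). Gapdh, Pgk1 and the enolase Eno1 had log2 fold changes of -0.044, 0.0054 and -0.19, and without IgG replicate 2 of 0.041, -0.0047 and 0.0048. With their near copies added the values were -0.027 for Gapdh, 0.20 for Pgk1 and -0.034 for Eno1, and none of these passed.

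Ldha (chr7:46841475-46855627, plus strand) turns pyruvate into lactate and was the most abundant member by CPM in IgG. The window printed for it, with 5 ACGTG motifs, precedes the RefSeq start and lies inside the gene span given here, which is from GENCODE, so that the 2 annotations start the gene at different places. It was at 3644, 3422 and 2629 CPM in aOX40 and at 6535, 4005, 3791, 4470 and 3852 CPM in IgG. The groups did not overlap, with aOX40 replicate 1 just below IgG replicate 4. The log2 fold change was -0.49 (SE 0.23, 95% interval -0.99 to 0.019, adjusted p = 0.217, edgeR), and -0.32 without IgG replicate 2 (adjusted p = 0.349). Pdk1 averaged 33.0 ± 10.9 CPM in aOX40, against 39.2 ± 12.3 CPM in IgG, with overlapping groups (-0.24, SE 0.30, and -0.026 without IgG replicate 2).

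**Figure D4:**
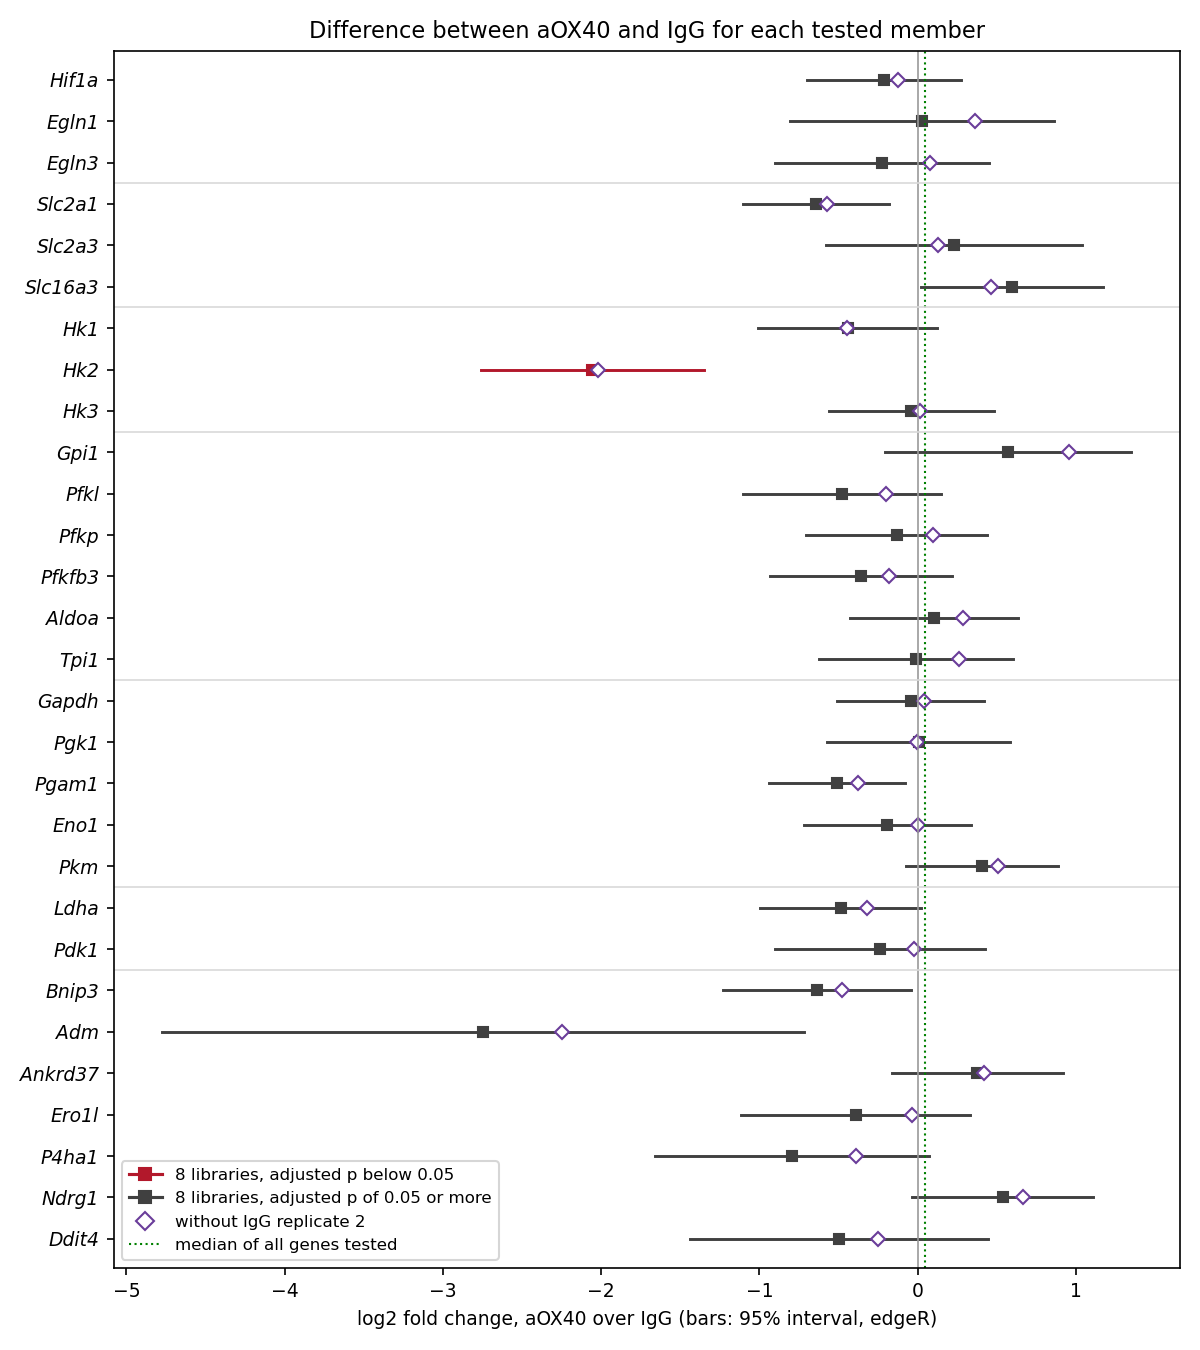
Log2 fold change of aOX40 over IgG for the 29 tested members, in the order of their roles, with 95% intervals from edgeR; open diamonds are the estimates without IgG replicate 2 and the dotted line is the median of all genes tested, 0.045. Hk2, at -2.06, is the only member with an adjusted p below 0.05, and leaving out IgG replicate 2 moves Gpi1 to 0.96 and P4ha1 to -0.39.

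Hypoxia targets outside glucose metabolism had a median log2 fold change of -0.50 over the 7 tested, and 0 were called. Adm (chr7:110627661-110629820, plus strand), a vasodilator peptide gene that hypoxia strongly induces, was at 3.23, 1.09 and 2.11 CPM in aOX40 and at 31.5, 8.59, 16.6, 14.5 and 0 CPM in IgG. Of the IgG libraries 4 were above all aOX40 libraries and 1, replicate 6, had no count, where 3 counts would be 0.0531 CPM. The log2 fold change was -2.75 (SE 0.92, 95% interval -4.77 to -0.72, adjusted p = 0.100, edgeR). Adm was called without IgG replicate 6 (-3.08, adjusted p = 0.0259, where 3.64% of all genes were called), and with IgG replicate 2 left out instead it was at -2.25 (adjusted p = 0.164). Ddit4 (chr10:59949669-59951834, minus strand), the mTOR inhibitor REDD1, had the next widest spread between IgG libraries. It was at 102, 55.8 and 62.2 CPM in aOX40 and at 168, 89.7, 151, 67.7 and 40.1 CPM in IgG, so that single IgG libraries differed 4.18-fold while the groups overlapped (-0.50, SE 0.43, adjusted p = 0.511). Without IgG replicate 2 it was at -0.25 (adjusted p = 0.754).

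Bnip3, a mitochondrial receptor of mitophagy, was at 1343, 857 and 637 CPM in aOX40 and at 2071, 1351, 1244, 1299 and 1384 CPM in IgG. Only aOX40 replicate 1 reached the IgG range (log2 fold change -0.64, SE 0.27, 95% interval -1.23 to -0.041, adjusted p = 0.175). It shares 504 exon bases with a gene model on the other strand. Ndrg1, a stress-response gene widely used as a hypoxia marker, was the one member higher in aOX40 without overlap, at 65.5, 65.7 and 77.4 CPM against 64.9, 50.8, 30.6, 57.2 and 36.4 CPM in IgG. The margin to IgG replicate 2 was under 1 CPM, and at 0.54 (SE 0.26, 95% interval -0.036 to 1.11, adjusted p = 0.231) it did not pass. Ankrd37, a small ankyrin gene induced by HIF, averaged 90.2 ± 14.9 CPM in aOX40, against 69.5 ± 16.9 CPM in IgG, and Ero1l averaged 657 ± 62.0 CPM in aOX40, against 863 ± 431 CPM in IgG, both with overlap. Their log2 fold changes were 0.38 for Ankrd37 (SE 0.24, adjusted p = 0.371) and -0.39 for Ero1l (SE 0.33, adjusted p = 0.498), and without IgG replicate 2 that of Ero1l was -0.038 (adjusted p = 0.935).

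Neighbouring genes of the same pathways give the setting in which the members were read. Over 6 lists of 109 genes, 76 were tested, and 5 were higher and 2 lower in aOX40, beside 2.64% and 3.00% of all genes. The lists were chosen with earlier results of these data known, so these counts cannot show that the lists differ from other genes. The pentose phosphate pathway, which branches off after hexokinase and makes the NADPH that the phagocyte oxidase consumes, had 2 of 7 genes higher, with a median log2 fold change of 0.41. Pgd, the phosphogluconate dehydrogenase, was at 246, 334 and 292 CPM in aOX40 and at 94.2, 113, 136, 106 and 65.1 CPM in IgG. All aOX40 libraries were above all IgG libraries (log2 fold change 1.5, SE 0.24, adjusted p = 0.0114, edgeR). G6pdx, the entry enzyme, was at 80.4, 225 and 136 CPM in aOX40 and at 56.6, 61.0, 89.6, 55.8 and 51.1 CPM in IgG, with aOX40 replicate 1 inside the IgG range (1.23, SE 0.31, adjusted p = 0.0464). Tkt (0.70, adjusted p = 0.229) and Taldo1 (0.41, adjusted p = 0.299), which link the pathway back to glycolysis, did not pass.

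**Figure D5:**
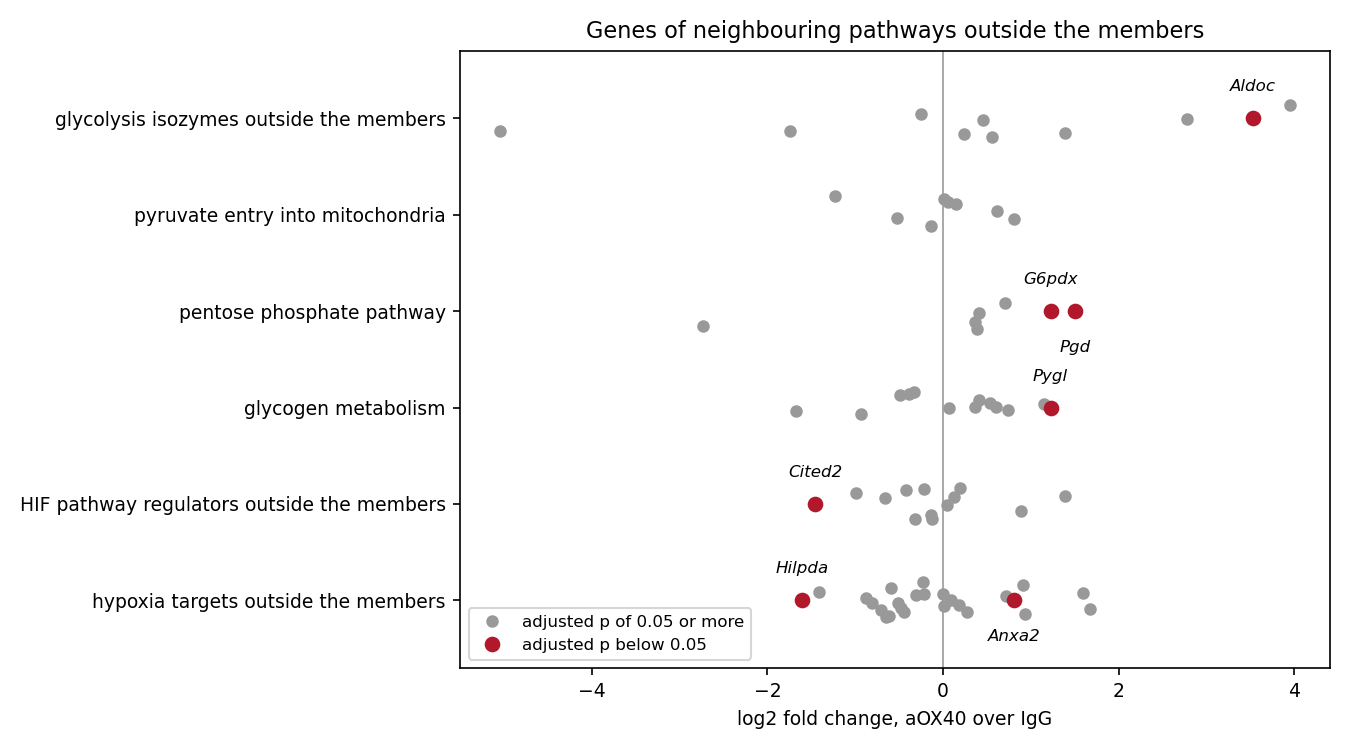
Log2 fold change of aOX40 over IgG for 76 tested genes of 6 pathway lists outside the members, 1 point per gene; red points and names mark an adjusted p below 0.05 (edgeR). The called genes are Aldoc, Pgd, G6pdx, Pygl and Anxa2 on the higher side and Cited2 and Hilpda on the lower side.

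Of 25 other hypoxia targets tested, 1 was higher and 1 lower. Hilpda, which HIF induces and which blocks the breakdown of lipid droplets, was at 2085, 1139 and 1103 CPM in aOX40 and at 6134, 4016, 3670, 5005 and 3043 CPM in IgG. It fell by 1.60 on the log2 scale (SE 0.30, adjusted p = 0.0191) without overlap, and aOX40 replicate 1 was the highest aOX40 library, as for Hk2. Plin2, a lipid droplet coat protein, was lower without overlap, at 2505, 2937 and 2614 CPM against 6566, 4558, 3535, 4065 and 4870 CPM in IgG, but did not pass (-0.81, SE 0.22, adjusted p = 0.0559). Vegfa, the angiogenic growth factor, did not pass either (-0.70, SE 0.28, adjusted p = 0.151). Anxa2, an annexin, was at 945, 1174 and 789 CPM in aOX40 and at 620, 534, 658, 459 and 496 CPM in IgG (0.81, SE 0.20, adjusted p = 0.0414).

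Among 13 other HIF regulators Cited2, which HIF induces and which competes with Hif1a for the coactivators Ep300 and Crebbp, was called lower. It was at 299, 207 and 239 CPM in aOX40 and at 1191, 586, 693, 564 and 374 CPM in IgG, without overlap (-1.46, SE 0.34, adjusted p = 0.0369). Arnt, the partner subunit of Hif1a, was at 15.9, 36.7 and 41.1 CPM in aOX40 and at 65.2, 53.9, 69.4, 63.8 and 59.3 CPM in IgG, again without overlap, and did not pass (-0.99, SE 0.29, adjusted p = 0.0702). Pygl, the glycogen phosphorylase of liver and leukocytes, was the 1 called of 13 glycogen genes, at 153, 366 and 230 CPM in aOX40 and 108, 76.3, 150, 79.9 and 120 CPM in IgG (1.22, SE 0.30, adjusted p = 0.0428). Of 10 glycolysis isozymes, Aldoc rose between low levels, at 9.58, 9.05 and 4.10 CPM against 2.26, 0, 0, 1.09 and 0.0177 CPM in IgG (3.53, SE 0.76, adjusted p = 0.0224). Of the 8 genes of pyruvate entry into mitochondria 0 passed, and Pdhb, a subunit of pyruvate dehydrogenase, came nearest (-1.23, SE 0.39, adjusted p = 0.0884).

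The calls in these lists changed with single libraries, as did those of the whole table. With 1 library left out in turn, Hilpda and Pgd were called in 6 of 8 analyses, Aldoc in 5, Cited2 in 3, G6pdx and Pygl in 2 and Anxa2 in 1, and none was called without aOX40 replicate 2 or without aOX40 replicate 3, the fits in which the whole table gave 0 calls of 14111 genes, and 26 higher and 33 lower of 14167. The adjusted p without aOX40 replicate 2 was 0.115 for Hilpda and Aldoc and 0.0811 for Pgd, and without aOX40 replicate 3 it was 0.0818 for Hilpda, 0.0503 for Aldoc and 0.0503 for Pgd. Without IgG replicate 2 the genes called were Aldoc, Cited2, Hilpda and Pgd. All 7 genes kept their side of 0 when 1 library was left out.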

How the data were processed

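The 8 libraries were placed in 2 groups, aOX40 (3) and IgG (5), by the submitters' titles. The authors deposited estimated counts per gene symbol, with no scaling. STAR 2.6.0, Subread and featureCounts 1.5.1 were used with the build mm10, per the submitters' processing notes; annotation and strand setting are not stated in the sources used here. Within 0.01, 63.4% of the deposited counts were whole, and all were rounded. Genes were filtered with filterByExpr by group, scaled with TMM factors and compared in R 4.3.3 with edgeR 4.0.16, by its quasi-likelihood test in the newer form (legacy = FALSE), with Benjamini-Hochberg adjustment over 13278 genes and a threshold of 0.05. Standard errors came from the F statistic. CPM used the TMM factors, and log2 CPM a prior count of 2. Single library values were compared with exact two-sided permutation tests over 56 splits, unadjusted.

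The members and lists were chosen with earlier results of these data known. Values in every library were given, by rule, for members called, for the member with the smallest adjusted p of each role and for the 3 with the widest IgG spread at a mean of at least 10 CPM; of the neighbouring lists, called genes and, in a list with none, the gene with the smallest adjusted p were named. Further genes given per library or with a fold change (such as Hk1, Hk3, Gpi1, Pkm, Slc16a3, Bnip3, Ndrg1, Arnt, Plin2, Vegfa, Tkt and Taldo1) were chosen after their values were seen. A library stands apart where its gap to the next, over the range of the 5 IgG libraries, is above 0.71.

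Positions and lengths came from GENCODE M21 on GRCm38 (17673 of 18187 symbols), promoters from RefSeq on GRCm38.p6. Near copies were transcripts with 95% identity over 50% of the length (BLAST+ 2.17.0). The alternatives were other scalings and filters, DESeq2 1.42.0, limma voom (limma 3.58.1), a robust fit, the replicate block, length and GC offsets and each library left out, with the older edgeR fit and merged near copies added after the data were seen. The fit was tested on simulated data.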

Additional observations from a re-analysis of the deposited data

Results flagged for a closer look

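In 12 of the 29 tested members (41.4%), IgG replicate 2 stood apart at the top of the 5 IgG libraries, with a gap to the next library above 0.71 of the whole IgG range. The same held for 2.87% of all genes tested and for 3.61% of the highest quartile by level. By chance about 1 in 20 groups would be flagged, but that rate covers any of the 5 libraries at either end. It is not the rate for 1 given library at the top, and cannot be set against these shares. Among glycolytic enzymes, its level was 513 CPM for Gpi1 (next highest IgG library 221), 570 CPM for Pfkl (304), 624 CPM for Pfkp (360) and 2924 CPM for Aldoa (1963). Tpi1 was at 1937 CPM (next 1026), Pgam1 at 2122 CPM (1472) and Eno1 at 2113 CPM (1338). Ldha was at 6535 CPM (next 4470) and Pdk1 at 61.0 CPM (35.8). Pkm, which makes pyruvate, was not flagged, with 4314 CPM in IgG replicate 2 and 3638 CPM in the next IgG library. The hypoxia targets outside glycolysis were Egln3 at 724 CPM (next 360), Bnip3 at 2071 CPM (1384) and Ero1l at 1614 CPM (764). Hk2, the member called between the treatments, was not among them: IgG replicate 2 had 125 CPM and IgG replicate 5 had 140 CPM.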

How the results depend on the processing

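Each member was refitted under up to 21 alternatives, 8 of which leave out 1 library, giving 608 values, of which 48, in 13 members, were on the other side of 0; all belong to members that did not pass. Genes called over the whole table numbered 874 higher and 246 lower with total counts alone (78.0% of calls higher, against 46.8%), 194 and 258 with no filter, 109 and 211 with the older edgeR fit, 506 and 951 with DESeq2 (34.7% higher), 239 and 494 with length offsets (32.6%) and 250 and 444 with GC offsets (36.0%), and with 1 library left out 0 to 263 higher and 0 to 326 lower (0 without aOX40 replicate 2, where 2230 had an unadjusted p below 0.05; 26 and 33 once aOX40 replicate 3 was left out). Members called lower numbered 2 with DESeq2 and with length offsets (Hk2 and Slc2a1), and with 1 library left out 0 to 2 were lower and 0 to 1 higher. In the neighbouring lists, 2 were called higher with upper quartile factors, with no filter and with length or GC offsets, 8 with total counts alone, 3 with voom and 1 with the older fit, and 6 lower with DESeq2, 5 with length offsets and 1 with the older fit; with 1 library left out 0 to 5 were higher and 0 to 2 lower. The replicate numbers 2 and 3 are shared by the groups, and the labels do not say whether they pair libraries. The deviations of same-numbered libraries correlated at 0.0224 and 0.0469, and those of libraries with unlike numbers at -0.0053 and -0.0435. So few pairs cannot decide whether the numbers pair the libraries. With the replicate block, on those 4 libraries, 0 genes were called in the whole table, the members and the lists (2594 at an unadjusted p below 0.05). Hk2 was then at -2.48 (adjusted p = 0.238). The causes were not tested. Values past 0 with total counts alone were 0.10 for Hif1a, 0.092 for Egln3, 0.27 for Hk3, 0.19 for Pfkp, 0.29 for Tpi1, 0.25 for Gapdh, 0.12 for Eno1 and 0.093 for Pdk1. With the block they were -0.58 for Egln1, 0.014 for Hk3, -0.36 for Aldoa, -0.28 for Pgk1 and -0.012 for Ankrd37; with length offsets -0.22 for Egln1, -0.026 for Slc2a3, -0.17 for Aldoa and -0.24 for Pgk1; with GC offsets -0.20 for Egln1, -0.099 for Aldoa and -0.093 for Pgk1. Egln1 and Pgk1 were at -0.024 and -0.036 with upper quartile factors and at -0.0098 and -0.013 with DESeq2, Pgk1 was at -0.013 with RLE factors and -0.032 with voom, and Tpi1 was at 0.016 with at least 10 counts everywhere and 0.042 with voom. With 1 library left out, values ran from -0.13 to 0.36 for Egln1, -0.33 to 0.079 for Egln3, -0.39 to 0.58 for Slc2a3, -0.21 to 0.18 for Hk3, -0.24 to 0.096 for Pfkp, -0.083 to 0.28 for Aldoa, -0.14 to 0.26 for Tpi1, -0.18 to 0.075 for Gapdh, -0.31 to 0.22 for Pgk1 and -0.27 to 0.0048 for Eno1. Not divided by length, Hk3 made up 59.1% of hexokinase counts in aOX40 and 44.4% in IgG, Hk1 31.9% in aOX40 and Hk2 23.9% in IgG.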

Other observations

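The summed share of the 30 members with a row in all counts, before any scaling, was 2.42 ± 0.289% in aOX40 (SD, n = 3) and 2.09 ± 0.421% in IgG (SD, n = 5), and IgG replicate 2, at 2.80%, was the highest library. The mean log2 CPM of the 29 tested members, after TMM scaling, was 8.09 ± 0.025 in aOX40 and 8.31 ± 0.36 in IgG. The first value is a sum, which abundant members set, and the second a mean of logs, in which each member counts alike. The 2 values also differ in scaling, since TMM factors were 1.07 to 1.27 in aOX40 and 0.874 to 0.984 in IgG. The part of each in the unlike directions was not tested. The 3 aOX40 libraries differed little in this mean, from 8.07 to 8.11, while the IgG libraries ran from 7.87 in replicate 6, where Adm had no count, to 8.87.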
